A study of Mus musculus with 10 samples.

Results

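The genes described here lie around Jaml on mouse chromosome 9. The members are the protein-coding genes of the deposited count table whose locus starts between 40000000 and 50000000 on that chromosome and whose counts sum to at least 200 over 10 libraries. Jaml itself, the chaperone gene Hspa8 and the interleukin-10 receptor gene Il10ra were left out by the same rule. This gave 58 genes, of 111 protein-coding genes in the interval and of 56980 genes in the table. The members were thus chosen by position and by their summed counts, and not by the difference between the groups. Just inside the threshold lay Nxpe4 with 226 counts and Apoa4 with 267, and just outside it lay Thy1 with 151 counts and Mpzl2 with 107. RNA-seq counts were available for 10 libraries of macrophages taken from mice, in 2 groups of 5. The second group of the series is titled JAMLMKO and tagged as a Jaml knockdown, and its comparison group is titled JAMLWT and tagged WT. Cells of both groups were primed with LPS, the endotoxin sensed by TLR4, at 100 ng/ml over 8 h and then exposed to ATP at 5 mM over 30 min. The labels used here name no strain, no targeted allele, no Cre driver and no tissue of origin, and do not say whether libraries came from separate animals. P-values therefore reflect only how far these libraries scatter, and that scatter may be technical.

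In the table, 5 count columns are headed WT and match the labels, while the other 5 are headed SI. No label explains SI. These columns were taken as the JAMLMKO group because the series has no other group, and every direction below rests on that assignment. They are called SI throughout. The gene at the centre could not check it: Jaml (ENSMUSG00000048534, chromosome 9, 44990481 to 45019832) had 2 counts in SI 4, 2 counts in WT 1 and 0 in the other libraries, all below a floor of 3 counts per library. Jaml RNA was not detectable at this depth in either group.

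JAML, the junctional adhesion molecule-like protein, is a surface receptor of leukocytes that binds the coxsackievirus and adenovirus receptor on epithelial cells. Its gene sits in a stretch that is dense with genes of unlike function, among them the CD3 chains of T cells, an apolipoprotein cluster and several adhesion molecules. When a gene is altered in embryonic stem cells of a given mouse strain and the line is bred to another strain, the chromosome around the altered gene stays of donor origin for many generations. Genes in this flanking segment, known as passenger genes, can differ between carrier and control animals because of strain variants and not because of the altered gene. A segment of that kind includes the altered gene but need not be centred on it. The question put to these data was whether differences between SI and WT depend on distance from Jaml.

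Libraries held 19319512 to 22766319 counts. Levels are given as CPM, counts scaled to a common total by library size and composition (TMM), and the floor of 3 counts corresponds to 0.132 to 0.155 CPM by size alone; it covers counting error only. The macrophage markers Adgre1, Csf1r, Cd68, Itgam, Fcgr1 and Mertk were all detected, with a summed level of 5105 to 5811 CPM in SI and 5331 to 5669 CPM in WT; Csf1r was higher, Fcgr1 and Mertk lower (log2 fold change -1.62 ± 0.08 for Fcgr1) and the other 3 were not called. Summed markers of T cells were at 1.97 to 3.09 CPM in SI and 2.34 to 3.01 CPM in WT, nearly all of it Lck. The CD3 genes Cd3d and Cd3g lie in the interval itself and had at most 3 counts in any library, and Cd3e was listed at 0 in all 10. Summed B cell markers were at most 0.216 CPM in SI and 0.268 CPM in WT, and summed dendritic cell markers were at 0.806 to 1.15 CPM in SI and 0.589 to 1.87 CPM in WT. Of 4 neutrophil markers S100a8 alone was above the floor, at 19.5 to 23.6 CPM in SI and 12.5 to 16.1 CPM in WT, with no overlap, and it rose by 0.56 ± 0.07 on the log2 scale (adjusted p = 0.000142). Summed mast cell markers were at 3.37 to 4.24 CPM in SI and 5.02 to 10.0 CPM in WT.

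Of the 58 members, 57 passed the filter on low counts and were tested, and Apoa4 did not. In edgeR's quasi-likelihood test over all genes, at a Benjamini-Hochberg adjusted p under 0.05, 15 members were higher in SI, 8 were lower and 34 did not pass. The members called were 40.4% of those tested, against 29.1% of all 14436 genes tested and 32.9% of the 11435 protein-coding genes with at least 200 counts. By direction, 26.3% of members were higher and 14% lower. Of all genes 14.1% were higher and 15.0% lower, and of the protein-coding genes of that abundance 15.8% were higher and 17.1% lower. The differences were small. The median absolute log2 fold change was 0.18 over the members, 0.17 over all genes and 0.16 over the protein-coding genes of that abundance. The median signed value was 0.06 for the members and 0.01 for all genes. At least 2-fold, 1 called member differed, namely Tagln. For 19 members, or 33.3%, the 5 SI values and the 5 WT values did not overlap, against 23.3% of all genes tested and 26.7% of the protein-coding genes of that abundance. In bulk RNA, fewer cells of a type and less RNA per cell cannot be told apart. With library totals in place of TMM the median of all genes moved to 0.12, and the calls among members became 26 higher and 6 lower, against 4231 higher and 1361 lower over all genes. A further fit left out SI 1, SI 2 and WT 2, the libraries with most apolipoprotein RNA (chosen with the values in view). In it 15 of 56 members tested were called, or 26.8%, 9 higher and 6 lower, against 21.7% of all genes.

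Within 1 Mb of Jaml differences were neither more frequent nor larger than further away in the interval. Distance was taken as the gap between a gene and Jaml as the table lists them. Within 1 Mb of Jaml 12 of 33 members were called, or 36.4%. Between 1 and 2.5 Mb 3 of 8 were called, or 37.5%, and beyond 2.5 Mb 8 of 16 were called, or 50%. Of the 9 members within 0.5 Mb 2 passed, or 22.2%. With so few genes this share cannot be told apart from the 29.1% of all genes. The median absolute log2 fold change was 0.16 within 1 Mb, 0.31 between 1 and 2.5 Mb (8 genes, Apoa1 included) and 0.26 beyond. It was 0.17 within 0.5 Mb and 0.16 between 0.5 and 1 Mb. Across the 57 members its rank correlation with distance was 0.152 (Spearman; genes share libraries and are not independent replicates). The value was 0.093 among the 35 members at lower coordinates than Jaml and 0.0153 among the 22 at higher coordinates. A decline away from Jaml inside the interval would have given a negative value. The farthest member, Zfp202, lies 4.87 Mb away, so a segment covering the whole interval need not give a decline. The labels name no targeted allele, and whether such a segment exists was not tested. Without SI 1, SI 2 and WT 2 the correlation was 0.246. In that fit 7 of the 33 members within 1 Mb were called, against 21.7% of all genes.

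**Figure D1:**
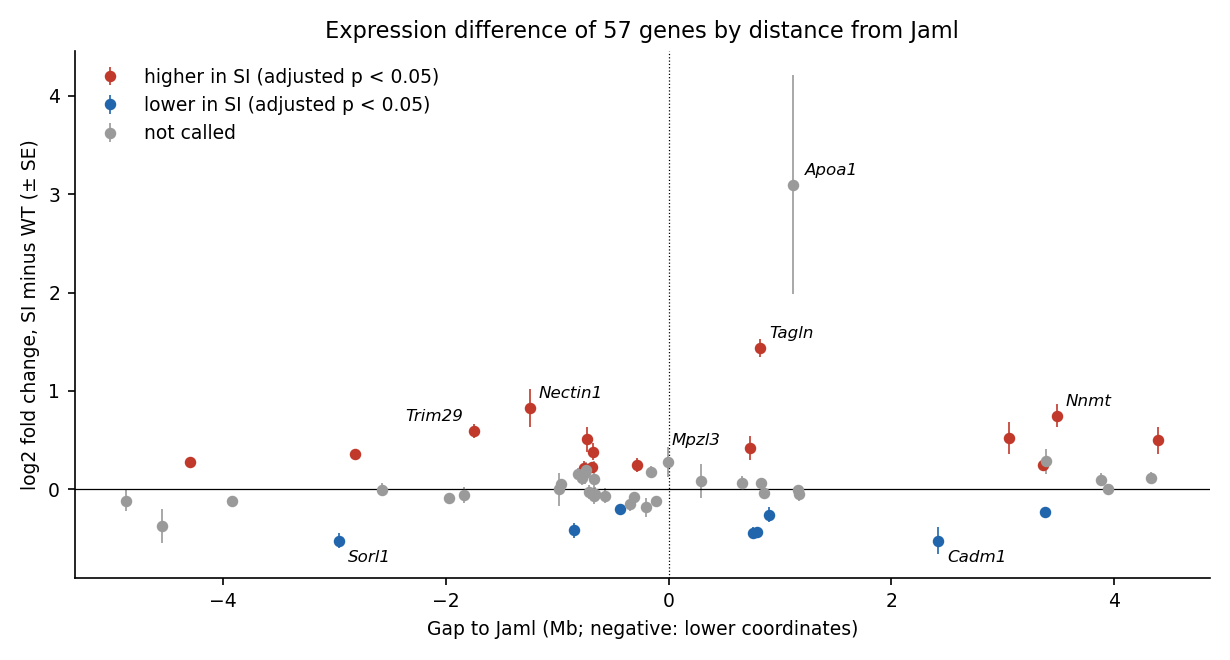
Each point is 1 of 57 genes, with its gap to Jaml in Mb on the x axis and its log2 fold change, SI minus WT, with SE on the y axis. The 9 genes within 0.5 Mb lie between -0.21 and 0.27. Called genes (red higher, blue lower in SI) run from a gap of 0.286 Mb (Ift46) to 4.39 Mb (Ncam1). Apoa1 is far up with a wide SE and no call.

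The sides were unlike in share. At higher coordinates than Jaml 11 of 22 members were called, and at lower coordinates 12 of 35. Within 1 Mb 5 of 9 were called at higher coordinates and 7 of 24 at lower coordinates. The counts are small and the sides were not tested against each other. Elsewhere on chromosome 9 174 of 582 protein-coding genes of the same abundance were called, or 29.9%. There 15.5% were higher and 14.4% lower, and SI and WT values did not overlap for 25.3%. Cut into 12 other stretches of 10 Mb with 20 to 110 such genes each, chromosome 9 had shares of 8.70% to 46.7%, so the members' share lay inside that range. The median absolute log2 fold change of these stretches ran over 0.08 to 0.24.

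Each library was set against the mean of the WT libraries (a WT library against the other 4) on the log2 scale with 0.5 CPM added. Within 1 Mb of Jaml the median absolute deviation was 0.16 to 0.22 in the SI libraries and 0.07 to 0.12 in the WT libraries. Beyond 2.5 Mb it was 0.16 to 0.29 in SI and 0.06 to 0.10 in WT. SI and WT libraries did not overlap in either range. Between 1 and 2.5 Mb they did, with 0.13 to 0.36 in SI and 0.09 to 0.16 in WT. The reference is the WT mean, so SI libraries can lie further off in any set of genes that differ between the groups. These deviations were not computed for genes outside the members. Of the SI libraries, SI 2 (0.160 within 1 Mb, 0.157 beyond 2.5 Mb) and SI 5 (0.219 and 0.204) deviated slightly more near Jaml, and the other 3 deviated more beyond 2.5 Mb. The rank correlation of deviation with distance was 0.0309 to 0.277 over the SI libraries and -0.19 to 0.0453 over the WT libraries.

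**Figure D2:**
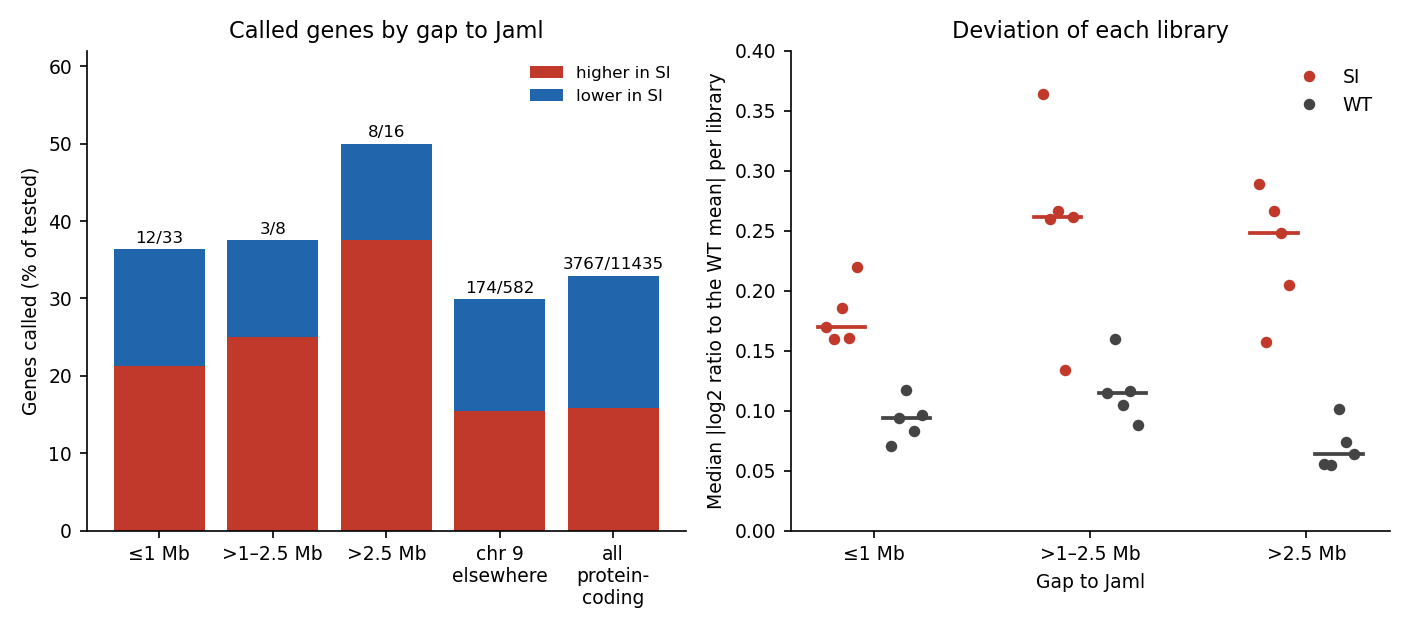
Left, the share of tested genes called in SI against WT, stacked by direction (red higher, blue lower), for 3 ranges of the gap to Jaml and for the rest of chromosome 9 and all protein-coding genes of like abundance, with counts above the bars. Right, the median absolute log2 ratio to the WT mean in each library (points; bars are medians of 5): SI libraries lie above WT libraries within 1 Mb and beyond 2.5 Mb. The median of the 5 SI libraries is 0.17 within 1 Mb and 0.25 beyond 2.5 Mb, and SI 2 and SI 5 are slightly higher within 1 Mb. Deviations of genes outside the members were not computed.

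The 9 members within 0.5 Mb of Jaml had a median absolute log2 fold change of 0.17, the same as the 0.17 over all genes. Mpzl3, which encodes a myelin protein zero-like adhesion protein, is the member nearest to Jaml (chromosome 9, 44966484 to 44988734), with a gap of 1.75 kb. Its level was 2.81, 3.54, 2.51, 3.29 and 3.43 CPM in SI 1 to SI 5, against 3.01, 3.1, 2.02, 2.36 and 2.39 CPM in WT 1 to WT 5. The groups overlapped, and the log2 fold change was 0.27 ± 0.15 (± SE, here and in the log2 values that follow; edgeR adjusted p = 0.212). Ube4a, a ubiquitin chain elongation factor at a gap of 114 kb, had -0.12 ± 0.05 (adjusted p = 0.0806), and Atp5l, a subunit of mitochondrial ATP synthase, had 0.17 ± 0.06 (adjusted p = 0.0506). The log2 fold change was -0.18 ± 0.10 for the histone H3 lysine 4 methyltransferase gene Kmt2a, -0.08 ± 0.03 for Arcn1, a subunit of the COPI coat, -0.15 ± 0.08 for Phldb1 and 0.08 ± 0.17 for Fxyd2, a regulator of the sodium pump. None of these passed the test. Atp5l passed with library totals (log2 fold change 0.29, adjusted p = 0.00374), without a low-count filter (0.0459), with the stricter filter (0.0354) and without WT 2 (0.0155), and Arcn1 passed with the DESeq2 Wald test (0.0456).

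The other 2 members within 0.5 Mb were called. Ift46, a protein of intraflagellar transport that is encoded head to head with Arcn1 at a distance of 62 bases, rose by 0.24 ± 0.07 on the log2 scale (adjusted p = 0.0237). Its level was 12.7 to 15.4 CPM in SI and 11.4 to 12.8 CPM in WT, so the groups overlapped. The call was lost without SI 1 (adjusted p = 0.054), without SI 2 (0.0619), without SI 1 and SI 2 (0.162) and without SI 1, SI 2 and WT 2 (0.19). Ddx6, an RNA helicase of processing bodies that represses and decaps mRNA, was at 205, 221, 215, 237 and 229.9 CPM in SI 1 to SI 5, against 257, 261, 244, 265 and 249 CPM in WT 1 to WT 5. Every SI library lay below every WT library, and the gene fell by 0.21 ± 0.04 (adjusted p = 0.00434). With library totals Ddx6 lost its call (log2 fold change -0.09, adjusted p = 0.0953), as it did without SI 1, SI 2 and WT 2 (adjusted p = 0.0525). Il10ra, left out of the members but lying 145 kb from Jaml, was at 22.6 to 47.4 CPM in SI and 29.9 to 61.4 CPM in WT with a log2 fold change of 0.04 ± 0.23.

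**Figure D3:**
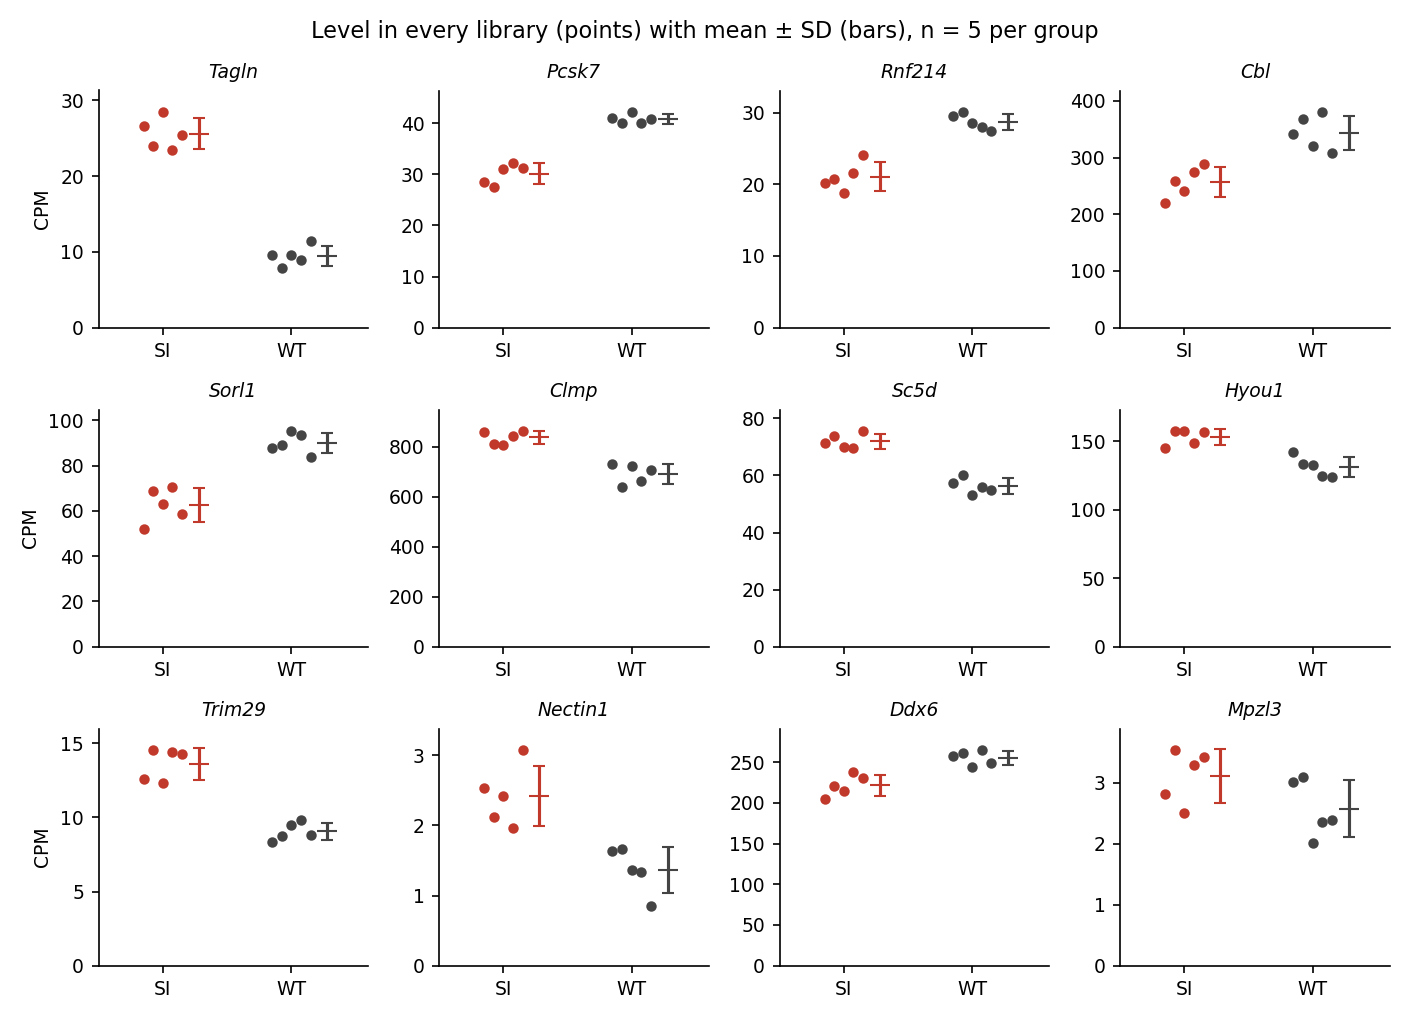
CPM of 12 members in every library (points), SI left and WT right, with mean ± SD beside the points (n = 5 each). SI and WT do not overlap in the panels other than Mpzl3, whose 5 SI values of 2.51 to 3.54 CPM overlap the WT values.

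The largest called difference was that of Tagln, which encodes transgelin, an actin-binding protein of smooth muscle and of contractile fibroblasts. Tagln (ENSMUSG00000032085, chromosome 9, 45840917 to 45847356) was at 26.7, 23.9, 28.5, 23.4 and 25.5 CPM in SI 1 to SI 5, against 9.63, 7.81, 9.54, 8.96 and 11.4 CPM in WT 1 to WT 5. Each SI library held more Tagln RNA than any WT library, and the gene was 2.70-fold higher in SI (log2 fold change 1.43 ± 0.09, adjusted p = 7.37e-07). It lies 821 kb from Jaml. Its neighbours on both sides differed far less or in the other direction. Pcsk7, which it overlaps by 108 bases, was lower, and Sidt2, 1798 bases away, had 0.06 ± 0.04 (adjusted p = 0.277), although Sidt2 passed with library totals (log2 fold change 0.18, adjusted p = 0.00164). A pair of contractile genes outside the interval, Acta2 on chromosome 19 and Cnn1 at chromosome 9, 22010512 to 22020926, picked after their values were seen, were higher as well. Acta2 (smooth muscle actin) was at 48 ± 3.1 CPM in SI and 27.5 ± 1.69 CPM in WT and Cnn1 (calponin) at 1.37 ± 0.165 CPM in SI and 0.224 ± 0.0344 CPM in WT (mean ± SD, n = 5 each). Fibroblast markers moved in different directions. Col1a1 rose by 0.37 ± 0.05, Pdgfra fell by 1.01 ± 0.08 and Col3a1 had -0.32 ± 0.13, and their summed level was 346 to 441 CPM in SI and 337 to 385 CPM in WT. Summed mesothelial markers (Msln, Upk3b, Krt19) were at 0.736 to 14.8 CPM in SI and 7.91 to 14.3 CPM in WT, most of it Msln. Upk3b was at 0.0982 to 0.345 CPM in SI and 1.18 to 1.72 CPM in WT, with no overlap, and fell by 2.69 ± 0.26 (adjusted p = 1.32e-05), while Msln and Krt19 were not called. The part of such cells in the Tagln result was not tested.

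Pcsk7 and Rnf214 fell by nearly the same amount. Pcsk7, a proprotein convertase of the secretory pathway (chromosome 9, 45817795 to 45841024), was at 28.4, 27.6, 31.1, 32.3 and 31.2 CPM in SI 1 to SI 5, against 41, 40, 42.2, 40.1 and 40.8 CPM in WT 1 to WT 5. Rnf214, a RING finger protein gene (chromosome 9, 45774723 to 45818209), was at 20.2, 20.8, 18.8, 21.6 and 24.1 CPM in SI 1 to SI 5, against 29.5, 30.1, 28.6, 28 and 27.4 CPM in WT 1 to WT 5. In both genes all SI values lay below all WT values. Pcsk7 fell by 0.44 ± 0.05 on the log2 scale (adjusted p = 4.77e-05) and Rnf214 by 0.45 ± 0.06 (adjusted p = 0.000278). They are neighbours, lie head to head in GENCODE M21 and overlap by 415 bases in the deposited table, and the strand setting of the counting is not given, so reads of the overlap cannot be told apart. Their start windows in RefSeq (build GRCm38.p6, 250 bases before to 50 bases after a start) share 114 bases on opposite strands. They are shown because these neighbours moved together, with the shared bases in capitals. The Pcsk7 window is chr9:45906319-45906618, plus strand, and the Rnf214 window is chr9:45906133-45906432, minus strand; Rnf214 has a second listed start outside it.
Pcsk7: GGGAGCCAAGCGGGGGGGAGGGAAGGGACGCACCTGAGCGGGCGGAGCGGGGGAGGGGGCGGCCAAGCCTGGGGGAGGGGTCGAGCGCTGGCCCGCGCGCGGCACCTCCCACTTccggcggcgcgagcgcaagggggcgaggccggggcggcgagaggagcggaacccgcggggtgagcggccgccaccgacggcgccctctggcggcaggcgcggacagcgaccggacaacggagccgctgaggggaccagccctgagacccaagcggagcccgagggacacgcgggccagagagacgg
Rnf214: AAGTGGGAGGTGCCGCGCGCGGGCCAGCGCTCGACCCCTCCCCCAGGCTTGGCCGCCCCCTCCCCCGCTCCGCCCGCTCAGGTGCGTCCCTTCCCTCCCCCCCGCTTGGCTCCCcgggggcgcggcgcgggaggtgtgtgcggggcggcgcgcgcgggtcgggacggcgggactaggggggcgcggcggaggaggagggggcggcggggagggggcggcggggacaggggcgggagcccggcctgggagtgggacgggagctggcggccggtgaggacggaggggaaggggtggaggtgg
Over its remaining length Rnf214 also overlaps Bace1 by 975 bases at its other end. Bace1, the beta-secretase that cleaves the amyloid precursor protein, went the other way with 0.42 ± 0.12 (adjusted p = 0.0198). Its values were 4.4 to 5.71 CPM in SI and 3.38 to 4.69 CPM in WT, which overlap. Bace1 also shares its locus with Gm16536, a long noncoding RNA gene (1713 counts over the libraries), and Gm49338 (2486), against 963 counts for Bace1 itself, so its value is uncertain. It lost its call without SI 1, SI 2 and WT 2 (adjusted p = 0.0538) and without SI 1 and SI 3 (0.0957).

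Another head-to-head pair did not move together. Rbm7, an RNA-binding protein of the nuclear exosome targeting complex (chromosome 9, 48400001 to 48406599), was at 104, 104, 100.2, 112 and 112 CPM in SI 1 to SI 5, against 128, 124, 123, 123 and 127 CPM in WT 1 to WT 5. It fell by 0.23 ± 0.04 (adjusted p = 0.00108), and the groups did not overlap. Gm5617 starts 142 bases away in the table and was at 3.23 to 3.68 CPM in SI and 2.25 to 3.48 CPM in WT, with 0.28 ± 0.13 (adjusted p = 0.129). Gm5617 passed with library totals (log2 fold change 0.40, adjusted p = 0.0274) and without WT 3 (0.0404). Their RefSeq start windows (chr9:48495093-48495392, plus strand, and chr9:48495281-48495580, minus strand, GRCm38.p6) share 112 bases, in capitals.
Gm5617: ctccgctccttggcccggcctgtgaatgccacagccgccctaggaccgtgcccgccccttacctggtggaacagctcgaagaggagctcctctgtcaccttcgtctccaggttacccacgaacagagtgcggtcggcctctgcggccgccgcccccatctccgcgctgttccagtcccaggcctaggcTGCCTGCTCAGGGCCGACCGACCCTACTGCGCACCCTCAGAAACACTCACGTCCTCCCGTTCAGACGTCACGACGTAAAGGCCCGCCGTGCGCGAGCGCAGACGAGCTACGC
Rbm7: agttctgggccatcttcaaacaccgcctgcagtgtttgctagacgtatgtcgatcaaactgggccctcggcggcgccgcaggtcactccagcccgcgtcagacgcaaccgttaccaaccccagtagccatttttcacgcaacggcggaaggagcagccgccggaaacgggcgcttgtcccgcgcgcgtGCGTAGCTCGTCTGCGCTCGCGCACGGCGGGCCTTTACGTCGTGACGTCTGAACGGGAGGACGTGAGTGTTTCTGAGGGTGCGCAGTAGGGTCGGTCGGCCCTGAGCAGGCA
On the far side of Rbm7 lies Rexo2, a mitochondrial oligoribonuclease gene (chromosome 9, 48379812 to 48391923). Its level was 94.1, 89.6, 77, 83.6 and 89.8 CPM in SI 1 to SI 5, against 75.5, 72.3, 74.2, 73.2 and 70.7 CPM in WT 1 to WT 5, with all SI values above all WT values, and it rose by 0.25 ± 0.05 (adjusted p = 0.00405). Rexo2 lost its call without SI 1, SI 2 and WT 2 (log2 fold change 0.19, adjusted p = 0.0586). Of another head-to-head pair, 129 bases apart, the kinase gene Sik3 fell while its neighbour Pafah1b2, a subunit of the platelet-activating factor acetylhydrolase of the cytosol, had -0.04 ± 0.05. Directions thus changed from gene to gene along the chromosome: Bace1 was higher, Rnf214 and Pcsk7 lower, Tagln higher, Sidt2 and Pafah1b2 not called and Sik3 lower, in that order.

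Among adhesion and immune surface proteins 14 genes of the interval were listed, and 5 of them were abundant enough to be members. Of these 3 rose, 1 fell and Mpzl3 did not pass. The counts of this list and of those that follow stand against 14.1% of all genes higher and 15.0% lower. Clmp, an adhesion protein of the CTX family to which the JAML ligand also belongs, was the most abundant member. It was at 860.0, 813, 809, 842 and 863 CPM in SI 1 to SI 5, against 732, 638, 724, 665 and 705 CPM in WT 1 to WT 5, with no overlap, and rose by 0.27 ± 0.04 (adjusted p = 0.000517). Per kilobase of counted length its level was 146 CPM in SI and 121 CPM in WT, followed by Ddx6 with 26.9 CPM in SI and 31.0 CPM in WT. Nectin1, a nectin of adherens junctions and a herpesvirus entry receptor, was at 2.53, 2.11, 2.42, 1.96 and 3.07 CPM in SI 1 to SI 5, against 1.63, 1.66, 1.36, 1.33 and 0.846 CPM in WT 1 to WT 5. It rose by 0.82 ± 0.19 (adjusted p = 0.00737), and the groups did not overlap although counts were low. Ncam1, the neural cell adhesion molecule, was at 10.7, 11.1, 12.4, 9.97 and 6.65 CPM in SI 1 to SI 5, against 7.26, 6.58, 7.78, 6.86 and 7.61 CPM in WT 1 to WT 5. SI 5 lay within the WT range, and the log2 fold change was 0.50 ± 0.14 (adjusted p = 0.0193), with the call lost without SI 1 and SI 2 (0.108), without SI 1 and SI 3 (0.106) and without SI 1, SI 2 and WT 2 (0.18). Cadm1, a synaptic and mast cell adhesion molecule, was at 4.93, 5.26, 5.59, 4.07 and 4.33 CPM in SI 1 to SI 5, against 5.63, 8.94, 6.46, 6.45 and 7.41 CPM in WT 1 to WT 5. It fell by 0.52 ± 0.13 (adjusted p = 0.0116; 0.0529 without SI 1, SI 2 and WT 2), with WT 2 the highest library. Mast cell markers also lay lower in SI, with Tpsb2 at 2.13 ± 0.253 CPM in SI and 4.41 ± 1.15 CPM in WT and Cpa3 at 0.612 ± 0.433 CPM in SI and 1.84 ± 0.632 CPM in WT (mean ± SD, n = 5 each). The part of mast cells in the Cadm1 result was not tested.

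Of 12 ubiquitin and signalling proteins 1 rose, 3 fell and 8 did not pass. Cbl, an E3 ligase that marks activated receptor kinases for degradation (chromosome 9, 44054273 to 44145346), was at 220.4, 259, 242, 274 and 289 CPM in SI 1 to SI 5, against 341, 368, 321, 380.4 and 308 CPM in WT 1 to WT 5. All SI values lay below all WT values, and Cbl fell by 0.42 ± 0.08 (adjusted p = 0.00185). Sik3, a salt-inducible kinase that holds CRTC coactivators and class IIa histone deacetylases in the cytoplasm, was at 53.6, 47.7, 46.8, 50.5 and 57.8 CPM in SI 1 to SI 5, against 61.9, 56.6, 71.3, 57.9 and 59.3 CPM in WT 1 to WT 5. SI 5 lay above the lowest WT library, and Sik3 fell by 0.26 ± 0.08 (adjusted p = 0.0219). Its call was lost with library totals (log2 fold change -0.14, adjusted p = 0.144), without a low-count filter (0.0658), without SI 2, SI 3, WT 1 or WT 3 (0.0519 to 0.0552) and without 2 or 3 libraries (0.0704 to 0.081). Trim29, a TRIM protein that restrains innate immune signalling in macrophages, rose. It was at 12.6, 14.5, 12.3, 14.4 and 14.3 CPM in SI 1 to SI 5, against 8.34, 8.78, 9.49, 9.83 and 8.81 CPM in WT 1 to WT 5, with no overlap, a log2 fold change of 0.59 ± 0.07 and an adjusted p of 8.27e-05. Rnf214 is given above. Nlrx1, a mitochondrial NLR protein, had 0.16 ± 0.06 (adjusted p = 0.0535). It passed under 7 other settings, among them library totals (log2 fold change 0.27, adjusted p = 0.00208) and the fit without SI 1 (0.0143). The phosphatase-like Cbl partner gene Ubash3b had -0.12 ± 0.05 (adjusted p = 0.0799), although its groups did not overlap, with 58 to 67.2 CPM in SI and 67.9 to 71.4 CPM in WT. The deubiquitinase genes Usp2 and Usp28 had -0.00 ± 0.17 and 0.10 ± 0.07, the RING finger gene Rnf26 had 0.05 ± 0.04 and the guanine nucleotide exchange factor gene Arhgef12 had -0.09 ± 0.06. Usp28 and Rnf26 passed with library totals (adjusted p = 0.0205 and 0.00911).

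Of 9 genes of membrane traffic and membrane proteases 1 rose (Bace1), 2 fell and 6 did not pass. Sorl1, a sorting receptor that carries cargo between the Golgi and endosomes, was at 52.1, 68.6, 63, 70.4 and 58.6 CPM in SI 1 to SI 5, against 87.7, 89, 95.3, 93.8 and 84 CPM in WT 1 to WT 5. Each SI library lay below each WT library, and Sorl1 fell by 0.52 ± 0.08 (adjusted p = 0.000317). Pcsk7 was the other gene that fell. The tethering subunit genes Vps11 and Trappc4 had -0.03 ± 0.07 and -0.07 ± 0.08. Gramd1b, which encodes a carrier of cholesterol from the plasma membrane to the endoplasmic reticulum, was named after its values were seen. It was at 52.3, 115, 83.4, 63.5 and 95.3 CPM in SI 1 to SI 5, against 99.6, 103, 114, 108 and 107 CPM in WT 1 to WT 5. SI libraries ranged widely, with SI 2 just above the highest WT library and the other 4 below every WT library, and the log2 fold change was -0.38 ± 0.17 (adjusted p = 0.128). It passed without SI 2 (log2 fold change -0.53, adjusted p = 0.0213), without SI 1 and SI 2 (0.0299) and without SI 1, SI 2 and WT 2 (0.0481).

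Lipid, metabolic and endoplasmic reticulum enzymes were higher where they passed. Of 8 tested 5 rose, none fell and 3 did not pass, with a median log2 fold change of 0.37 against 0.01 over all genes, of which 14.1% rose and 15.0% fell. Sc5d, the lathosterol desaturase near the end of cholesterol synthesis (chromosome 9, 42162891 to 42175552), was at 71.3, 74, 69.9, 69.5 and 75.6 CPM in SI 1 to SI 5, against 57.4, 60.3, 53.1, 55.9 and 54.9 CPM in WT 1 to WT 5. The groups did not overlap, and Sc5d rose by 0.36 ± 0.04 (adjusted p = 7.93e-05). Other genes of the pathway lie elsewhere in the genome. Of 18 cholesterol synthesis genes with Sc5d 14 rose, none fell and 4 did not pass, against 14.1% higher and 15.0% lower over all genes, and the median over the list was 0.32 on the log2 scale. Dhcr7, which acts directly after Sc5d, rose by 0.72 ± 0.06. The Sc5d start window of RefSeq (chr9:42264251-42264550, minus strand, GRCm38.p6) is shown because Sc5d rose, as did most of its pathway elsewhere in the genome. Capitals mark CCAAT (on the other strand, ATTGG) and the palindrome CACGTG.
Sc5d: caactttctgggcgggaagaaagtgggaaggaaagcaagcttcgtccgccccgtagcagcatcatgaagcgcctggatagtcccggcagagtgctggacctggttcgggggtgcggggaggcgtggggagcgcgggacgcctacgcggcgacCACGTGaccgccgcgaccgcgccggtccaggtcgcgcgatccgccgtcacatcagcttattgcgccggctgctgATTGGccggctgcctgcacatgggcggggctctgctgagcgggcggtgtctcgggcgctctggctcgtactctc
RefSeq windows were found for 36 members, 47 windows in all. CACGTG was present in 9 of the 47, or 19.1%, against 7.15% of 32851 windows of the genome, and CCAAT on either strand in 12 of the 47, or 25.5%, against 37.4%. The letters GGGCGG on either strand were in 23 of the 47, or 48.9%, against 35.7%, and TGANTCA was in 1, or 2.13%, against 7.81%. G and C made up a median of 59.3% of bases in the members' windows and 52.7% in all windows, and the shares were not adjusted for this. Some members have several windows and some windows overlap, so they are not separate units. These matches are a description of letters in the windows.

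Hyou1, a large chaperone of the endoplasmic reticulum (chromosome 9, 44290787 to 44303666), was at 145, 157, 157, 148 and 156 CPM in SI 1 to SI 5, against 142, 133, 133, 124 and 124 CPM in WT 1 to WT 5. SI values lay above WT values, and Hyou1 rose by 0.22 ± 0.05 (adjusted p = 0.0034). Of 14 chaperone genes of this compartment with Hyou1 11 rose, none fell and 3 did not pass, at a median of 0.26, against 14.1% higher and 15.0% lower over all genes. Calr (calreticulin) rose by 0.41 ± 0.04, while Hspa5, the main HSP70 of the compartment, had -0.03 ± 0.15 with 350.4 to 629.9 CPM in SI and 446 to 527 CPM in WT. Slc37a4, the glucose-6-phosphate transporter next to Hyou1, was at 18.1, 14.4, 15.1, 15.8 and 14 CPM in SI 1 to SI 5, against 11.9, 10.3, 13.1, 11.5 and 12.5 CPM in WT 1 to WT 5. It rose by 0.38 ± 0.09 (adjusted p = 0.00546) with no overlap. Nnmt, which methylates nicotinamide, was at 5.81, 5.61, 5.37, 4.52 and 5.54 CPM in SI 1 to SI 5, against 3.31, 2.57, 2.93, 3.84 and 3.33 CPM in WT 1 to WT 5. All SI values lay above all WT values, and Nnmt rose by 0.75 ± 0.12 (adjusted p = 0.000569). Dpagt1, which begins N-glycan assembly, had 0.16 ± 0.11 (adjusted p = 0.301).

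The apolipoprotein genes Apoa1 and Apoa4, which encode proteins of plasma lipoproteins made in liver and intestine, followed single libraries. Apoa1 (chromosome 9, 46139878 to 46141764) was at 9.63, 12.5, 0.269, 0.638 and 0.806 CPM in SI 1 to SI 5, against 0.148, 1.93, 0.0505, 0.205 and 0.498 CPM in WT 1 to WT 5. Apoa4 was at 3.82, 5.52, 0.224, 0.393 and 0.756 CPM in SI 1 to SI 5, against 0.148, 0.803, 0.151, 0.154 and 0.199 CPM in WT 1 to WT 5. SI 1 and SI 2 stood far above the other SI libraries in both genes, and WT 2 stood above the other WT libraries. The log2 fold change of Apoa1 was 3.10 ± 1.12 (adjusted p = 0.0583), and Apoa4 was not tested. Without SI 1 and SI 2 the log2 fold change of Apoa1 was 0.02 (adjusted p = 0.992), so the difference rested on those 2 libraries. It passed with library totals (0.0415), the DESeq2 Wald test (0.04), and without SI 3, SI 4, SI 5 or WT 2 (0.0285 to 0.0449), and did not with limma-voom (0.241) or without any other single library (0.108 to 0.153). Without SI 1, SI 2 and WT 2 it was too low to be tested. Genes of liver cells on other chromosomes, picked after their values were seen, were also highest in SI 1 and SI 2, with WT 2 the highest WT library. Alb, serum albumin, was at 91.3, 101, 3.54, 3.29 and 7.51 CPM in SI 1 to SI 5, against 3.11, 15.7, 3.13, 2.46 and 4.18 CPM in WT 1 to WT 5. Apob was at 8.8, 8.59, 0.537, 0.196 and 0.756 CPM in SI 1 to SI 5, against 0.346, 1.93, 0, 0.205 and 0.299 CPM in WT 1 to WT 5. Fabp1, a fatty acid-binding protein of liver and intestine, was at 2.72 and 4.01 CPM in SI 1 and SI 2 and at most 0.151 CPM in the other SI libraries, with 0.535 CPM in WT 2 and at most 0.149 CPM in the other WT libraries. The part of liver RNA in the apolipoprotein values was not tested.

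**Figure D4:**
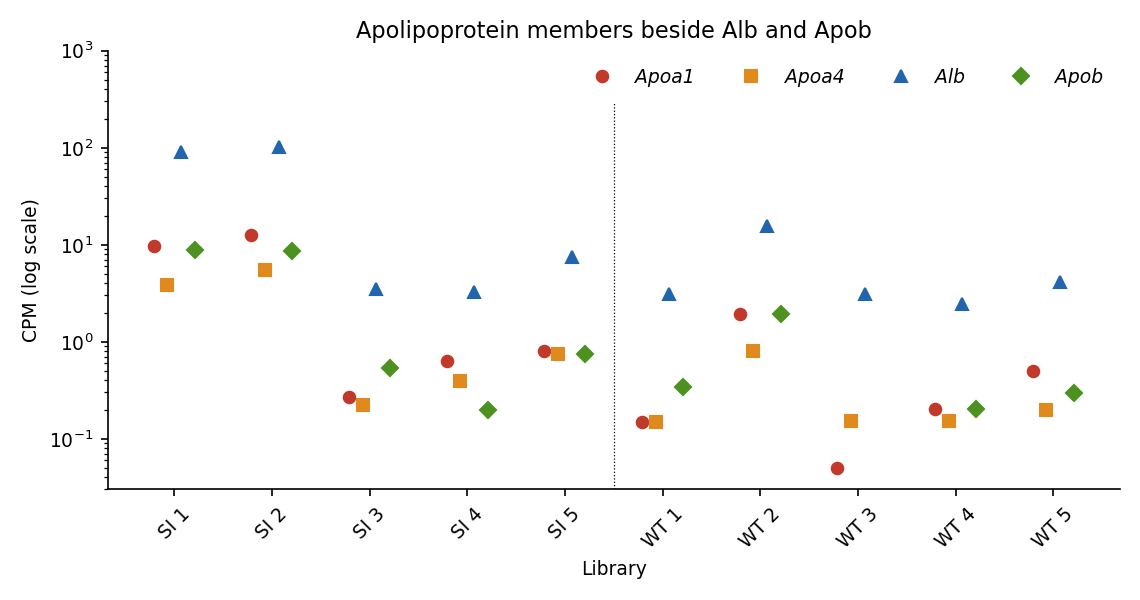
CPM on a log scale of Apoa1 and Apoa4 (members) and of Alb and Apob (liver genes elsewhere in the genome) in every library, SI left and WT right of the dotted line; values of 0 are not drawn, as for Apob in WT 3. All 4 genes are highest in SI 1 and SI 2 and next highest in WT 2.

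Of 16 nuclear, RNA and centrosome proteins 2 rose (Ift46 and Rexo2), 2 fell (Ddx6 and Rbm7) and 12 did not pass, with a median log2 fold change of -0.01. The histone variant gene H2ax had 0.20 ± 0.08 (adjusted p = 0.0841), the histone gene transcription factor Hinfp 0.11 ± 0.08 and the centriolar gene Cep164 0.07 ± 0.07, and these 3 passed with library totals (adjusted p = 0.0118, 0.0387 and 0.0447). Values within 0.1 of 0 were found for Zpr1, Bud13, Ccdc84, Bcl9l, Tbcel and Zw10, while Zfp202 had -0.12 ± 0.10. Rps25, a ribosomal protein gene named after its values were seen, was at 126, 118, 120.0, 71.3 and 127 CPM in SI 1 to SI 5, against 67, 108, 112, 115 and 122 CPM in WT 1 to WT 5. SI 4 and WT 1 stood well below the other libraries of their groups, and the log2 fold change was 0.10 ± 0.18 (adjusted p = 0.718). Rps25 overlaps Trappc4 by 462 bases and Ccdc84 by 269. Trappc4 was at 34.3, 30.3, 33, 32.3 and 28.2 CPM in SI 1 to SI 5 and 27.2, 33.6, 37.3, 33.2 and 35 CPM in WT 1 to WT 5, so that WT 1 was its lowest library too while SI 4 was not. Ccdc84 was at 6.25 to 7.02 CPM in SI and 6.51 to 7.32 CPM in WT. The part of the overlaps in the Rps25 values was not tested.

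Of the 6 members in no list 3 rose: Tagln, C2cd2l and Nxpe4. C2cd2l, a lipid transfer protein at contacts of the endoplasmic reticulum with the plasma membrane, was at 50.4 to 63.3 CPM in SI and 46.5 to 51.2 CPM in WT, with 0.22 ± 0.07 (adjusted p = 0.0301). Its call was lost without SI 2 (0.0687), without SI 5 (0.0681), without SI 1 and SI 2 (0.062) and without SI 1, SI 2 and WT 2 (0.116). Nxpe4 was at 1.04 to 1.48 CPM in SI and 0.74 to 1.02 CPM in WT, with 0.52 ± 0.16 (adjusted p = 0.0322). It has the fewest counts of the members tested, and lost its call without any of 7 single libraries, without a low-count filter (0.0532) and with the DESeq2 Wald test (0.135). Oaf and Ttc12 had -0.06 ± 0.08 and 0.11 ± 0.07, and Ttc12 passed with library totals (0.0157). Of the 23 members called, 19 kept their call without each library in turn, and 13 kept it under all 20 alternatives of test, scaling, filter and libraries: Clmp, Sorl1, Sc5d, Trim29, Nectin1, Cbl, Hyou1, Slc37a4, Rnf214, Pcsk7, Tagln, Rbm7 and Nnmt, where Nectin1 was not tested with the stricter filter. Of these 13, 6 are among the 33 members tested within 1 Mb of Jaml, and 7 are among the 24 tested further away. The share of all genes that kept a call in this way was not computed.

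Within the interval longer genes tended to have lower log2 fold changes, but members that rose and members that fell overlapped in length. Length was not among the planned comparisons. Counted length is the gene length implied by the authors' count and FPKM values. Members that rose had counted lengths of 2.51 to 13.5 kb with a median of 6.76 kb, and members that fell had 8.24 to 17.9 kb with a median of 12.4 kb. Members not called had 0.531 to 21.1 kb with a median of 8.27 kb. The rank correlation of log2 fold change with counted length was -0.493 over the 57 members and -0.142 over the 11435 protein-coding genes of like abundance. Over the whole locus with introns it was -0.398 for members and -0.105 for those genes. Under the alternatives the value for members ran over -0.528 to -0.38 and that for all protein-coding genes over -0.156 to -0.0698. Genes share libraries and are not independent replicates, so these values are a description.

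**Figure D5:**
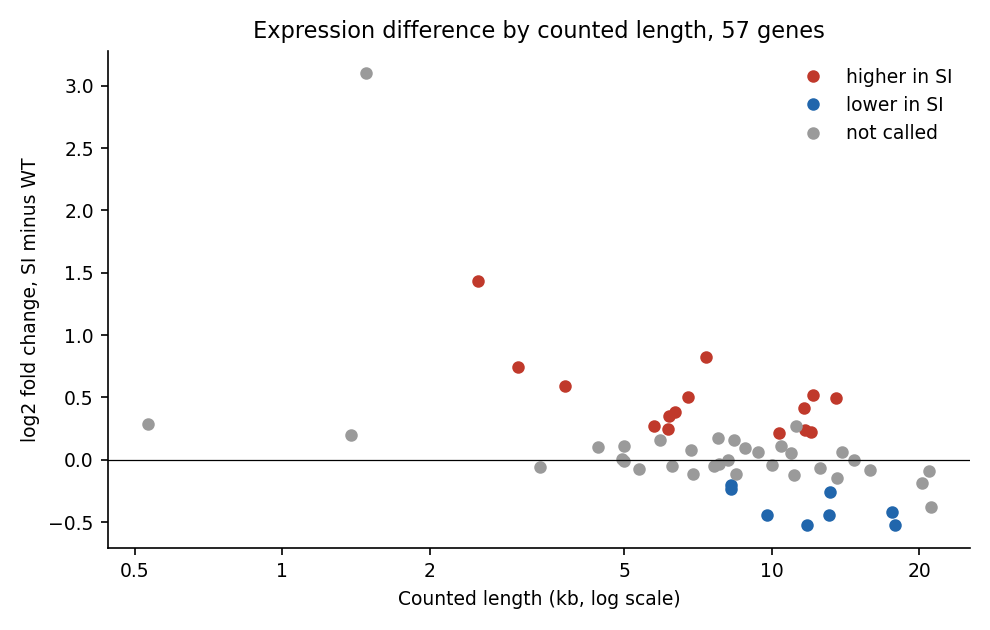
Log2 fold change, SI minus WT, against counted length in kb (log scale) for 57 genes, red higher and blue lower in SI, grey not called. Genes that fell have at least 8.24 kb, and the called genes under 5 kb (Tagln, Nnmt and Trim29) rose. Genes that rose extend to 13.5 kb and so overlap those that fell.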

How the data were processed

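The members, lists and named genes were chosen with earlier results of these data known. The authors deposited whole-number counts per gene and library, with FPKM, per the file headers. FPKM equalled count over a gene length and library total (largest relative spread 4.54e-06 over the WT libraries) and served only to obtain that length, called counted length; 5 FPKM columns were not used. The submitters' processing notes name CASAVA 1.8, TopHat2 2.0.6 and the builds mm10 and GRCm39, with no role given. Which counter, annotation or strand setting was used is not stated in these sources. Coordinates are as listed; for all 58 members they differ from GENCODE M21 (GRCm38) by 88700 to 88704 bases, so distances hold in both.

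Libraries held 19319512 to 22766319 counts. SI columns were taken as the JAMLMKO group by elimination, and their numbers name columns only. Counts were fitted over the whole table with edgeR 4.0.16 in R 4.3.3 (TMM, filterByExpr with a minimum count of 10, quasi-likelihood F test, SI minus WT, Benjamini-Hochberg over 14436 genes); the SE is the estimate over the square root of F. The procedure was tested on simulated data. Alternatives were DESeq2 size factors, library totals, no filter, at least 50 counts in 5 libraries, DESeq2 1.42.0, limma-voom 3.58.1, the replicate number as a block, each library left out, a sum of at least 1000 and distance between starts. Fits without 2 or 3 libraries were chosen after seeing the data. Named were members within 0.5 Mb, the 10 largest called folds in each direction, the 5 most abundant, up to 4 smallest p per list and those at the threshold, 30 members in all; others were named after their values were seen, and some values are not reported here. Reads of overlapping genes (30 members overlap a counted gene) cannot be told apart without strand.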

Additional observations from a re-analysis of the deposited data

Results flagged for a closer look

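Each group of 5 libraries was searched for a library apart from the others, by the gap to the nearest library as a share of the range (limit 0.71). Of 116 groups of the 58 members 7 were past it, and chance gives about 1 in 20. WT 2 was apart as the highest WT library for Apoa1 (0.762), Apoa4 (0.922) and Atp5l (0.733). SI 4 was the lowest SI library (0.836) and WT 1 the lowest WT library (0.744) for Rps25. SI 1 was the lowest SI library for Ube4a (0.714), and WT 4 the highest WT library for Zpr1 (0.714).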

How the results depend on the processing

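The count of members called was 21 to 25 and that within 1 Mb 9 to 13 when each library was left out, with a rank correlation of distance and size of 0.141 to 0.2. DESeq2 size factors, no filter, the stricter filter, DESeq2, limma-voom, a sum of at least 1000, distance between starts and library totals left each count within 1.5 times. Library totals gave 32 members called (26 higher, 6 lower), 17 of them within 1 Mb. Without SI 1, SI 2 and WT 2, 15 members were called, 7 within 1 Mb, with a correlation of 0.246; that fit has 7 libraries, and 21.7% of all genes were called. No member was called in opposite directions by different settings. The sign of a value that was not called could change, as for Arcn1 with library totals. Same-numbered libraries did not deviate together (correlations -0.114 to 0.184), and no label ties the SI numbers to samples. With the replicate number as a block 21 members were called, 10 within 1 Mb, and the correlation was 0.153; C2cd2l, Ift46 and Nxpe4 lost their call (adjusted p = 0.0609, 0.0572 and 0.0884 with edgeR), and Apoa1 gained one (0.0155). Depth limits Jaml, Apoa4 and Nxpe4 most.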
